A study of Mus musculus with 4 samples.

Results

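The genes of the cytosolic ribosomal proteins were described across CD4 T cells sorted from mouse colon and profiled by inDrops, a method that labels the mRNA of single cells in droplets. A gene was taken when its symbol began with Rps or Rpl and a digit, or was Rplp0, Rplp1, Rplp2 or Rpsa, and S6 kinase genes were left out. This name rule found 100 of 25724 gene symbols. Of these, 31 belonged to a list of small subunit genes and 46 to a list of large subunit genes, 9 were paralogs, 13 carried a pseudogene name, and Rps19bp1 is a protein named for its binding to a ribosomal protein. A total of 78 genes had at least 200 counts and were measured singly, and 20 had fewer. Rpl27-ps3 and Rpl9-ps6 had 0, which allows up to 2.38 CPM, counts scaled to the sum of 1000000. The filter on counts was taken over all cells together. Ratios and calls of single ribosomal protein genes are over the 78 that passed it. Ribosomal shares are over all 100 genes, and summed lists over all genes of the list.

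The cells were taken from lamina propria of the colon; the mice were B6 males, 6 weeks old. They were sorted as CD45+ TCRb+ CD4+ after digestion with collagenase and dispase. The labels name 4 samples of 1 group, called Btheta_colon, with 1 library name, and give no treatment and no other genotype. The deposited barcodes carry no sample, so the 4 samples were handled as 1 and no test between samples was possible. Comparisons were made between cells that hold or lack counts of chosen genes, here called gates, and every interval is an exact 95% interval that covers counting error only.

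A ribosome is built from ribosomal RNA and the proteins of its subunits, with few exceptions one copy of each. The small subunit reads the mRNA and the large subunit joins the amino acids. In mammals most of these mRNAs begin with a C and a run of pyrimidines, the TOP motif, through which the TOR kinase pathway controls their translation. Resting naive T cells are small cells with little cytoplasm, and activation brings growth and new ribosomes. Ccr7 and the transcription factor genes Tcf7 and Lef1 mark naive and central memory T cells. Foxp3 is the defining factor of regulatory T cells, Gata3 that of type 2 helper cells and also of many colon regulatory T cells, and Il10 encodes a suppressive cytokine made by effector and regulatory cells.

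Of 1985 barcodes, 1050 passed minimums of 500 counts and 200 genes and a limit of 20% on mitochondrial counts. They held 1549040 counts, with a median of 1235.5 per cell (quartiles 963 and 1723), and no barcode appeared more than once. T cell genes were present, with Trbc2 in 69.9% of cells, Trac in 67.6% and Cd4 in 39.0%, while Cd8a was found in 1 cell and the 4 haemoglobin genes of the erythroid list were at 0. In 16 cells at least 1% of the counts were of epithelial, myeloid, B cell, stromal or endothelial genes, among them Muc2, a mucin of goblet cells. These 16 cells held a ribosomal share of 9.34% (9.10 to 9.57), against 17.8% (17.7 to 17.9) in the other 1034. The lists also held Cst3 and Pecam1, found in 23.8% and 9.14% of all cells. Whether the 16 cells also hold T cell genes was not tested. Where they are called cells of other types below, the name stands for this rule only. Of the 16, 1 had a Foxp3 count, 5 a Gata3 count, 1 an Il10 count and 2 a count of Ccr7, Tcf7 or Lef1. Their median depth was 2081 counts against 1231.5 in the others.

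Ribosomal protein genes gave 270639 counts in the kept cells, 17.5% of the total. The small subunit list held 45.1% of these counts, the large subunit list 49.6%, the paralogs 3.96% and the genes with pseudogene names 1.37%. Most of the last 2 shares came from Rps27rt, at 3.09%, and Rps12-ps3, at 0.769%. Both may hold reads of small subunit genes, as described below. In single cells the share ran from 1.34% to 42.5%, with a median of 16.7% and quartiles of 14.1% and 19.9%. The SD over cells was 5.77 percentage points, and counting alone at each cell's depth gives 1.09, so cells differed by more than their counting error. At the top, 49 cells had a share of at least 30%, and at the bottom 30 cells were below 10%. Across the 1050 cells the share had a Spearman correlation of 0.068 with depth and 0.090 with the mitochondrial share, which share their total with it, and both are given as a description.

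Cells with a count of Ccr7, Tcf7 or Lef1 held more of their counts in ribosomal protein genes, and cells with Foxp3 or Il10 held fewer. In the 198 cells with at least 1 of the 3 naive genes the share was 20.6% (20.5 to 20.8), against 16.7% (16.6 to 16.7) in the 852 cells with none, a log2 ratio of 0.31 (0.29 to 0.32). Cell by cell, the lowest, median and highest were 6.68%, 18.9% and 42.3% with naive genes and 1.34%, 16.2% and 42.5% without. The ranges overlapped almost in full, and very high shares were more frequent with naive genes: 34 of 198 cells (17.2%, 12.2 to 23.2) had a share of at least 30%, against 15 of 852 (1.76%, 0.989 to 2.89).

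The 332 cells with Foxp3 had a share of 15.9% (15.8 to 16.0), against 18.2% (18.2 to 18.3) in the 718 without, a log2 ratio of -0.19 (-0.20 to -0.18). The lowest, median and highest cell were at 8.33%, 15.3% and 32.1% with Foxp3 and at 1.34%, 17.5% and 42.5% without. Of the cells at 30% or more, 1 had Foxp3 and 48 did not. For Il10 the share was 15.6% (15.5 to 15.7) in 266 cells and 18.1% (18.1 to 18.2) in 784, a log2 ratio of -0.22 (-0.23 to -0.21), with medians of 15.2% and 17.2%. No Il10 cell reached 30%, which allows up to 1.38% of such cells, against 49 of 784 (6.25%, 4.66 to 8.18) without Il10. The Gata3 gate gave the smallest difference of the 4, with 17.0% (16.9 to 17.0) in 572 cells and 18.1% (18.0 to 18.2) in 478, a log2 ratio of -0.10 (-0.11 to -0.08). Among cells with 0 naive counts it turned to 0.02, but without the 16 cells rich in other cell types' genes it was -0.16 over all cells and -0.05 (-0.06 to -0.04) among cells with 0 naive counts. Its medians were 16.5% and 16.9%, close together, whereas 3 Gata3 cells and 46 cells without Gata3 were at 30% or more.

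**Figure D1:**
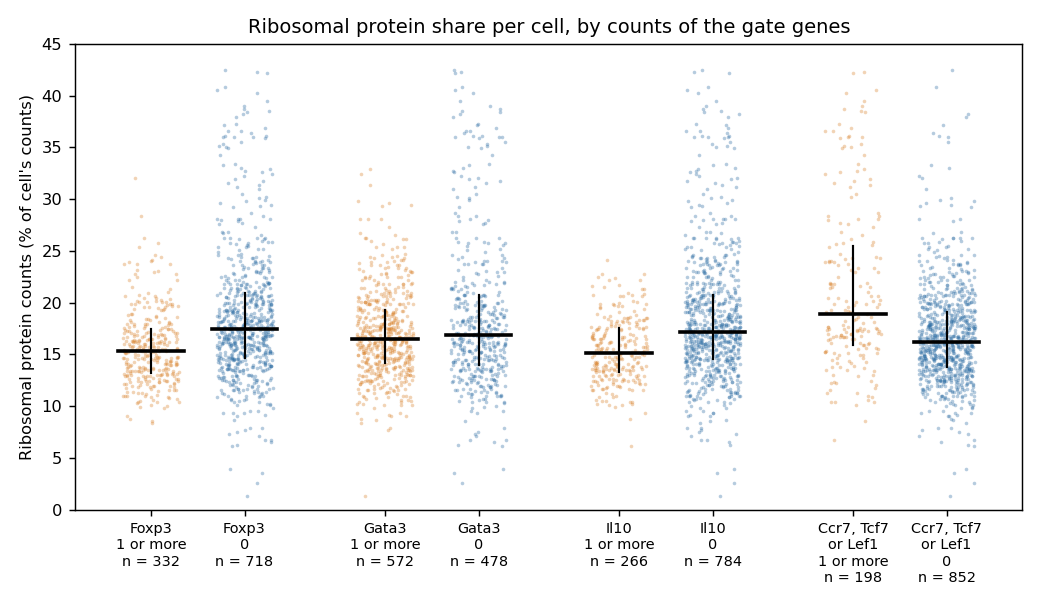
Share of each cell's counts that are of ribosomal protein genes (vertical axis, %), for cells with 1 or more counts and cells with 0 counts of the gate genes. Points are cells, horizontal bars medians and vertical bars quartiles; cells above 30% were mostly cells with Ccr7, Tcf7 or Lef1 and cells with 0 Foxp3, Gata3 and Il10.

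The gates overlapped, so they were also combined. Naive genes were found in 10.8% (7.71 to 14.7) of Foxp3 cells and 22.6% (19.6 to 25.8) of the others, in 6.77% (4.06 to 10.5) of Il10 cells and 23.0% (20.1 to 26.1) of the others, and at near equal shares on the 2 sides of the Gata3 gate, 18.7% and 19.0%. The highest ribosomal share belonged to 80 cells with a naive gene and 0 counts of Foxp3, Gata3 and Il10. Their share was 25.7% (25.5 to 26.0), with a median cell at 24.95% and quartiles of 18.3% and 34.97%, and 31 of the 80 (38.8%, 28.1 to 50.3) were at 30% or more. The 118 cells with a naive gene and also Foxp3, Gata3 or Il10 had 17.7% (17.6 to 17.9) and a median of 17.2%. The 217 cells with none of the 6 genes had 17.1% (16.9 to 17.2). Of these, 11 were among the 16 cells rich in other cell types' genes and held 51238 of their 310085 counts at a share of 8.41%; the other 206 cells had 18.8% (18.6 to 18.9).

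Among cells with 0 naive counts the share spanned a narrower range, 15.0% to 17.9% over the 8 combinations of Foxp3, Gata3 and Il10. Cells with Gata3 alone were highest at 17.9% (17.8 to 18.1, 227 cells), but below the 18.8% of cells with none of the genes once cells rich in other cell types' genes were left out, which took Gata3 alone to 18.0%. In both cases cells with Foxp3 and Il10 but 0 Gata3 were lowest at 15.0% (14.8 to 15.3, 50 cells). Between them were cells with Il10 alone at 15.3% (15.0 to 15.5, 49 cells) and cells with Foxp3 alone at 16.7% (71 cells). The interval of Il10 alone overlaps that of the lowest group. Cells with all 3 genes had 15.9% (86 cells), Foxp3 with Gata3 gave 15.8% (89 cells) and Gata3 with Il10 gave 15.9% (63 cells); these last 3 values had overlapping intervals.

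**Figure D2:**
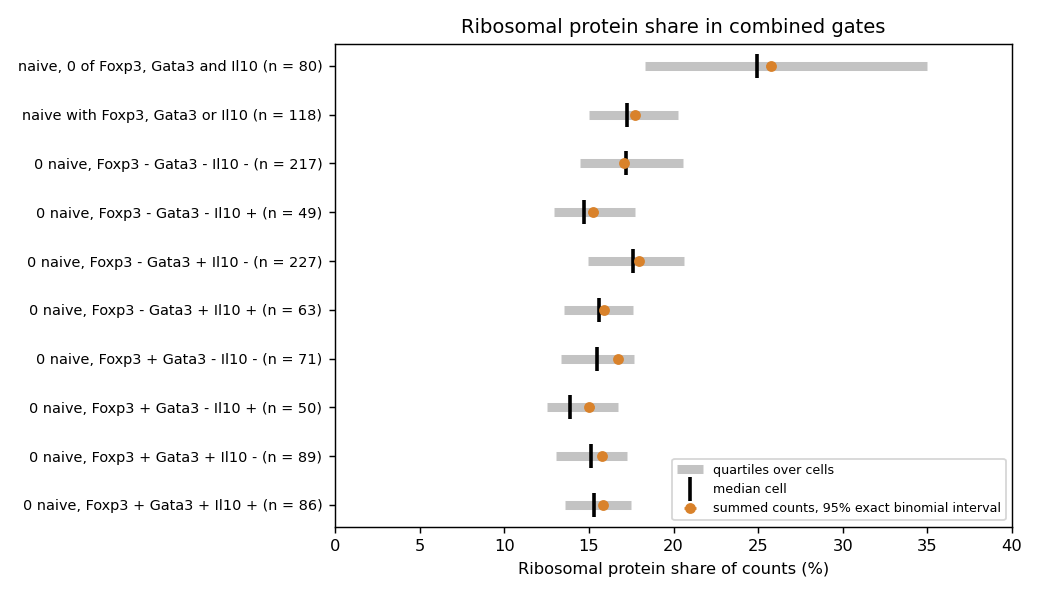
Ribosomal protein share of counts (horizontal axis, %) in 10 groups of cells; + and - mark 1 or more and 0 counts of the gate gene. Orange points are summed counts with their 95% exact binomial interval, mostly narrower than the point, black ticks the median cell and grey bars the quartiles; cells with a naive gene and 0 of Foxp3, Gata3 and Il10 lie at 25.7%, all other groups between 15.0% and 17.9%, where the group with none of the genes would lie at 18.8% without cells rich in other cell types' genes.

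Split by Foxp3 or by Gata3 alone, the Il10 difference kept 1 sign, with and without the cells rich in other cell types' genes. In the combinations above, cells with both Foxp3 and Gata3 went the other way. Their share was 15.86% (15.67 to 16.05) with Il10 and 15.76% (15.57 to 15.96) with 0 Il10, with overlapping intervals. Among cells with 0 naive counts, Il10 cells were lower by a log2 ratio of -0.05 (-0.07 to -0.03) within Foxp3 cells, -0.16 (-0.18 to -0.14) without Foxp3, -0.12 with Gata3 and -0.17 without. Without the cells of other types the last of these was -0.27 (-0.29 to -0.24). The Foxp3 difference was -0.12 (-0.13 to -0.10) among cells with 0 Il10, or -0.19 (-0.20 to -0.17) without the cells of other types, and -0.004 (-0.03 to 0.02) among Il10 cells, an interval that holds 0. Gata3 cells were higher by 0.07 (0.04 to 0.09) with Il10, also without the cells of other types, and gave -0.02 (-0.04 to 0.003) within Foxp3 cells. The Gata3 ratio was 0.06 (0.04 to 0.07) without Foxp3 and 0.02 (0.01 to 0.04) without Il10, and both signs turned without the cells of other types, to -0.05 (-0.07 to -0.04) and -0.08 (-0.09 to -0.06). Whether the strata differ from each other was not tested.

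A gate gene must be counted for a cell to pass, and cells that passed were deeper, with medians of 1304.5 against 1215 counts for Foxp3 and 1371 against 1213.5 for naive genes. In the bins from 500, from 1000 and from 1500 to under 2500 counts per cell the direction of all 4 gates was the same as over all cells. For Il10 the shares were 14.7% against 17.6%, 15.2% against 18.8% and 16.1% against 19.8%, and for naive genes 20.5% against 16.4%, 22.0% against 16.9% and 22.0% against 17.6%. In the 95 cells of at least 2500 counts, Foxp3 cells had 16.7% against 14.7%, Gata3 cells 16.4% against 14.2% and Il10 cells 15.7% against 15.5%, so 3 directions turned there. Of these 95 cells, 7 were among the 16 with other cell types' genes; without them the values were 16.7% against 16.8%, 16.5% against 17.4% and 15.7% against 17.1%. Naive genes gave 17.0% against 16.7% in the same 88 cells, with overlapping intervals of 16.7 to 17.3 and 16.5 to 16.8.

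**Figure D3:**
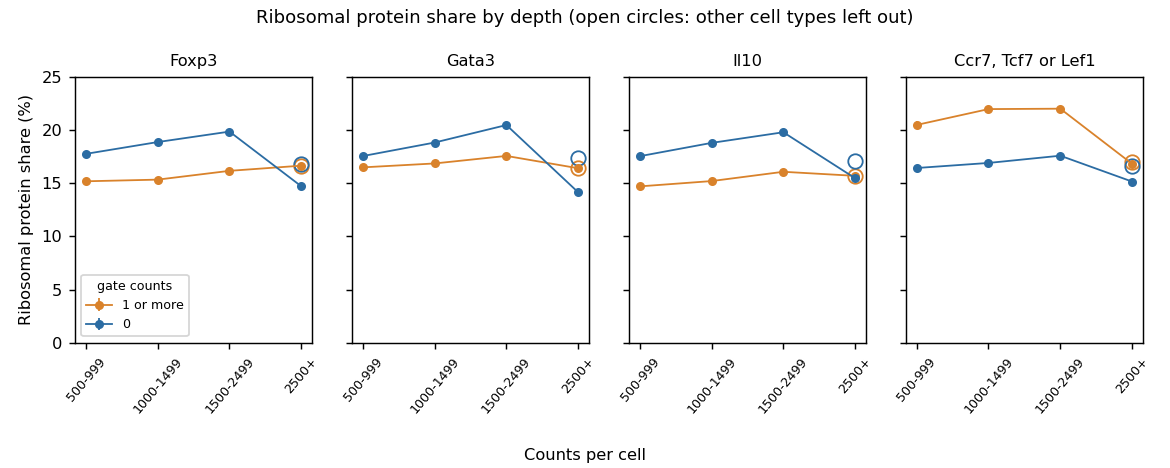
Ribosomal protein share (vertical axis, %, with 95% exact binomial intervals mostly within the points) in 4 bins of counts per cell, for cells with 1 or more (orange) and 0 (blue) counts of the gate genes. The sides are apart in the 3 lower bins; at 2500 counts or more they meet or cross for Foxp3, Gata3 and Il10, and open circles show that bin without cells rich in other cell types' genes.

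The cells of other types lay mostly on the negative sides. Counts of the 12 epithelial genes in the table summed to 71.9 CPM in Foxp3 cells and 2889.7 in the others, to 19.8 against 2635 for Il10, 21.5 against 4506 for Gata3 and 12.8 against 2442 for naive genes. With all 16 cells left out the log2 ratios of the ribosomal share were -0.24 for Foxp3, -0.26 for Il10, -0.16 for Gata3 and 0.28 for naive genes.

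Both subunits moved together. In cells with naive genes the small subunit list was higher by a log2 ratio of 0.35 (0.33 to 0.36) and the large subunit list by 0.27 (0.25 to 0.29). In Il10 cells the values were -0.25 (-0.27 to -0.23) for the small and -0.20 (-0.22 to -0.18) for the large subunit, in Foxp3 cells -0.21 and -0.17, and in Gata3 cells -0.10 and -0.09. The small subunit list thus had the larger ratio in each gate, with intervals that overlap only for Gata3.

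Gene by gene, a difference was called when the log2 ratio of CPM was 0.32 or more in size. In the naive gate 24 of the 78 genes were called higher, where 11.9% of 1263 genes with at least 200 counts were, and 0 were called lower, where 23.4% of all genes were. The median log2 ratio was 0.28 over the 78 genes and -0.04 over all genes. In the Il10 gate 26 of 78 were called lower, against 14.6% of all genes, and 1 was higher, against 19.8%; the medians were -0.22 and 0.03. In the Foxp3 gate 11 of 78 were lower, against 10.4% of all genes, and 0 were higher, against 19%; the medians were -0.21 and 0.04. The share of Foxp3 calls was near that background; without the 16 cells rich in other cell types' genes 21 were lower, against 11.5%. In the Gata3 gate 1 of 78 was lower, against 7.77% of all genes, and 0 were higher, against 14%, with medians of -0.09 and 0.04. Below 0 were 72 of the 78 genes for Foxp3, where 44.9% of all genes were. For Gata3 66 were below 0, against 44.3%, and for Il10 74, against 47.1%. Above 0 were 77 for naive genes, where 44.7% of all genes were. The 4 gates share cells and are given side by side only. The counts of calls moved with the settings: among cells with 0 naive counts 4 of the 78 genes were lower with Foxp3, against 10.6% of all genes, and 7 with Il10, against 13.6%. Among the same cells without those of other types 9 were lower with Foxp3, against 12.2%, and 14 with Il10, against 13.5%. In cells under 2500 counts 36 were lower with Foxp3, against 15.1% of all genes. With each gene's counts capped at 1 per cell, 1 gene was higher with naive genes, against 8.47% of all genes, and 1 lower with Il10, against 7.77%. The log2 ratio of the naive share was then 0.063. The 78 genes were found in a median of 81.5% of cells and in up to 98.2%. A cap at 1 leaves such genes little room to differ, so these values cannot decide on the ratios of full counts.

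**Figure D4:**
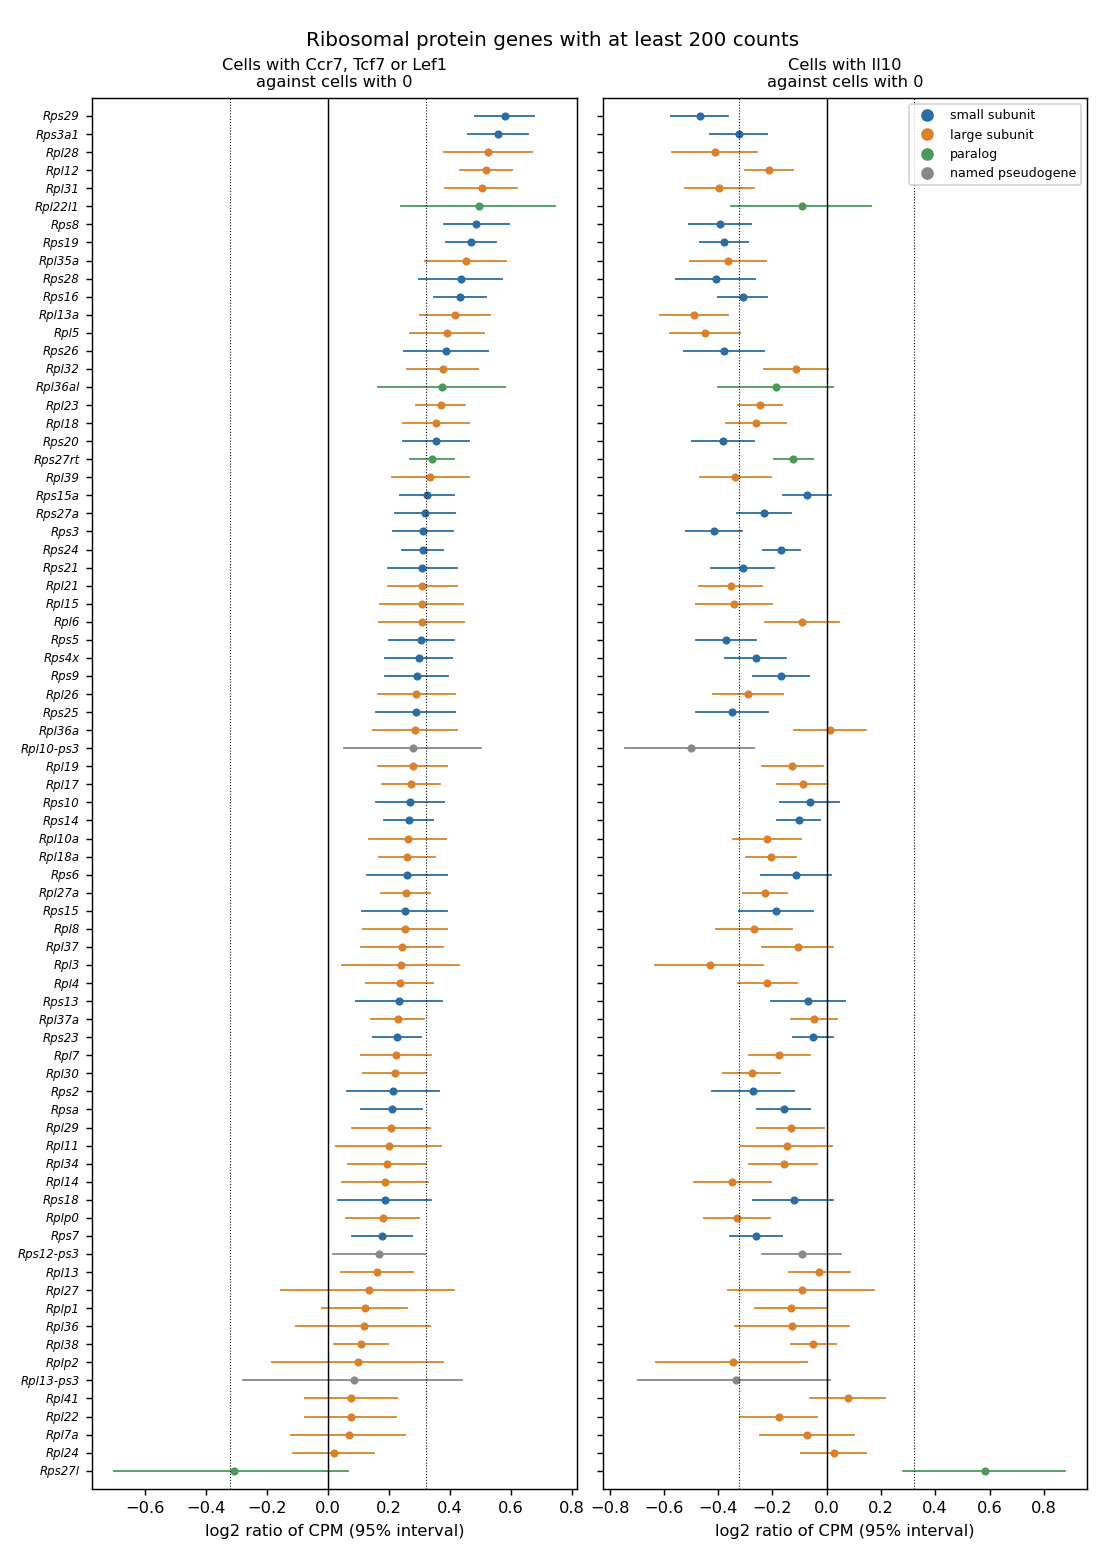
Log2 ratio of CPM (horizontal axes) for 76 of the 78 ribosomal protein genes with at least 200 counts, in cells with Ccr7, Tcf7 or Lef1 against cells with 0 (left) and cells with Il10 against cells with 0 (right). Points are ratios, lines 95% exact intervals of counting error, colours the class of the gene and dotted lines the size of 0.32 used for calls. In the left panel 75 genes lie above 0, where 44.7% of all genes with at least 200 counts did. In the right panel 72 lie below 0, where 47.1% of all genes did.

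Among small subunit genes, Rps29 and Rps3a1 were among the 6 highest genes of the naive gate. Rps29 (GENCODE on mm10, chr12:69157722-69159186, minus strand), a small zinc-binding protein of the 40S head, gave 3905 CPM (3688 to 4130.2) in cells with naive genes and 2614 (2524 to 2705) in the others, a log2 ratio of 0.58 (0.48 to 0.68). It was the lowest gene of the Foxp3 gate, with 2259.6 CPM (2132 to 2393) against 3179 (3071 to 3289), -0.49 (-0.59 to -0.40), and gave 2239 against 3097 in the Il10 gate, -0.47 (-0.57 to -0.36). The intervals of its 2 sides did not overlap in any of these 3 gates, and in the Gata3 gate its ratio was -0.23 (-0.31 to -0.14). Rps3a1 was at 3738 CPM against 2540.1 with naive genes, 0.56 (0.46 to 0.66).

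Among large subunit genes, Rpl28 and Rpl12 led the naive gate. Rpl28 gave 1719.7 CPM (1577 to 1872) against 1196 (1136 to 1259), 0.52 (0.38 to 0.67), and Rpl12, a protein of the stalk base, 4889.5 (4647 to 5141) against 3416 (3314 to 3521), 0.52 (0.43 to 0.60). Rpl13a and Rpl5 were among the 6 lowest genes of the Il10 gate. Rpl13a (chr7:45125558-45128761, minus strand) gave 1617 CPM against 2269, -0.49 (-0.61 to -0.36), and in the Foxp3 gate 1727 against 2285, -0.40 (-0.52 to -0.29). Rpl5, which with Rpl11 and 5S RNA forms the particle that can restrain Mdm2, gave 1533 against 2091 with Il10, -0.45 (-0.58 to -0.32). Its partner Rpl11 did not share that ratio: 949 CPM against 1050.4, -0.15 (-0.32 to 0.02), an interval that holds 0. The P proteins of the stalk, which recruit elongation factors, gave 1761 against 2212 for Rplp0 and 344 against 437 for Rplp2 in the Il10 gate, with ratios of -0.33 and -0.35, and 1521 against 1665 for Rplp1, -0.13 (-0.26 to 0.001). In the Gata3 gate Rplp2 was the 1 gene called, at 371 CPM against 469, -0.34 (-0.57 to -0.11).

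A few genes stayed near level while the total moved. Rpl24 (chr16:55966275-55971435, plus strand), a protein that helps bridge the subunits, was found in 80.3% of cells. It gave 1906 CPM against 1881 in the naive gate, 1912 against 1877 in the Il10 gate, 1966 against 1847 in the Foxp3 gate and 1904 against 1863 in the Gata3 gate. All 4 log2 ratios lay between 0.02 and 0.09 with intervals that hold 0. Rpl41 (chr10:128548114-128549305, minus strand), the smallest ribosomal protein, gave 1457 against 1382 with naive genes, 0.08 (-0.08 to 0.23), and 1454 against 1377 with Il10, 0.08 (-0.06 to 0.22). As shares of all ribosomal protein counts, Rpl24 was therefore higher by 0.25 (0.12 to 0.36) in Il10 cells and 0.28 (0.17 to 0.39) in Foxp3 cells, and lower in cells with naive genes at -0.29 (-0.42 to -0.16). Rpl41 gave 0.30, 0.26 and -0.23 on the same scale.

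**Figure D5:**
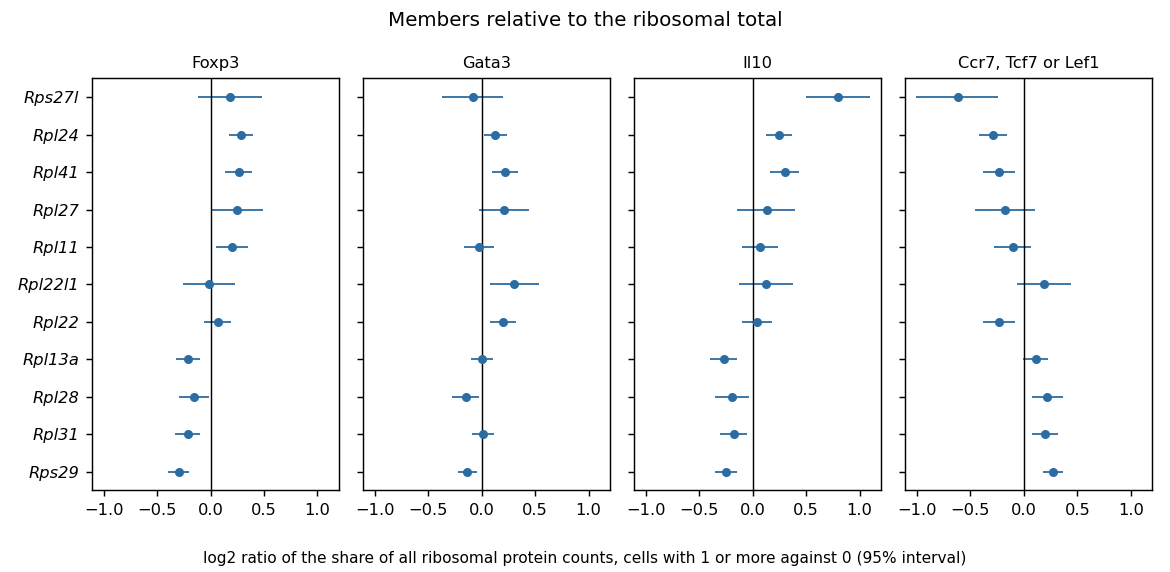
Log2 ratio of each gene's share of all ribosomal protein counts (horizontal axes, with 95% exact intervals), in cells with 1 or more against 0 counts of each gate's genes, for 11 genes chosen after their values were seen. Rps29, Rpl31 and Rpl28 lie right of 0 for Ccr7, Tcf7 or Lef1 and left for Foxp3 and Il10, Rpl24 and Rpl41 the other way, and Rps27l is farthest from 0 for Il10, at 0.80.

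The paralogs differed from each other. Rps27l, a paralog of Rps27 and a known p53 target, was found in 20.8% of cells and was the 1 gene called higher with Il10: 354 CPM (299 to 417) against 237 (209 to 267), 0.58 (0.28 to 0.88). Relative to the ribosomal total its ratio was 0.80 (0.50 to 1.10). It was also the 1 gene below 0 in the naive gate, at 225 CPM (175 to 284) against 278 (249 to 309), -0.31 (-0.70 to 0.07), an interval that holds 0. Rpl22l1, a paralog whose expression Rpl22 is known to repress, gave 571 CPM (490 to 661) against 406 (371 to 443) with naive genes, 0.49 (0.24 to 0.74). Rpl22 itself gave 1514 against 1437, 0.08 (-0.07 to 0.22). In the Gata3 gate both were at the upper end, with 0.21 (-0.02 to 0.44) for Rpl22l1 and 0.10 (-0.02 to 0.22) for Rpl22, and both intervals hold 0. Rpl36al gave 818 against 631 with naive genes, 0.37 (0.16 to 0.58), near the 0.28 (0.15 to 0.42) of Rpl36a. The other paralogs, Rpl7l1, Rpl6l, Rpl39l, Rpl10l and Rpl3l, had 92, 91, 31, 2 and 2 counts in all and were not compared.

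The 80 cells with a naive gene and 0 Foxp3, Gata3 and Il10 were set against the 852 cells with 0 naive counts, a comparison chosen after the combined gates were seen. In it 72 of the 78 genes were called higher, where 19% of 1260 genes were, and 1 was lower, where 39.7% were; the medians were 0.58 and -0.19. Without the cells of other types 71 were higher and 1 lower, with a median of 0.56. Rps29 gave 5424 CPM (5002 to 5872) against 2614, 1.05 (0.93 to 1.18) and Rpl35a 3059 (2744 to 3400) against 1481, 1.05 (0.88 to 1.21). These were the 2 highest ratios of the 78 genes. Rpl24 gave 1903 (1657 to 2176) against 1881, 0.02 (-0.19 to 0.22), and Rpl27 400.2 (292 to 535) against 392, 0.03 (-0.44 to 0.47). Rps27l was the gene on the other side, with 169 CPM (102 to 264) against 278, -0.72 (-1.47 to -0.05). Naive genes other than those of the gate were also higher in this comparison, at 5647 against 1547 summed CPM over 13 genes, while the 12 epithelial genes summed to 26.7 against 2442.

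Some ribosomal genes have a copy that held nearly all counts of the pair. Rps27 had 47 counts and the copy Rps27rt, whose coding sequence is 1 unbroken stretch on chromosome 9, had 8372, or 99.4% of the pair's counts. Rpl10 and Rpl10-ps3 had 15 and 918 counts, and Rps12 and Rps12-ps3 had 2 and 2081. In GENCODE the 255 coding bases of Rps27 (chr3:90212725-90213615) and Rps27rt (chr9:114982453-114982707) were identical, as were the 645 of Rpl10 and Rpl10-ps3. The 399 coding bases of Rps12-ps3 had 0 mismatches to Rps12, whose 447 bases left 48 gap positions. Untranslated ends were not compared. The shared sequence is shown because a read within it fits both genes. It is in lower case throughout, as no base differs:
Rps27 and Rps27rt: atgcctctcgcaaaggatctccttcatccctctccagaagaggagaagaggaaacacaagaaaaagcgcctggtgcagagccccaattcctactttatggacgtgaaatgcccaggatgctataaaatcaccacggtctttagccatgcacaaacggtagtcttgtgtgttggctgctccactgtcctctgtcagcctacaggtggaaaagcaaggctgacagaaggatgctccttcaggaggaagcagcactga

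A value of Rps27rt, Rpl10-ps3 or Rps12-ps3 is therefore uncertain, as it may hold reads of the other gene of the pair. Rps24 had the most counts of the set, 9582, and Rps27rt came next. Rps27rt gave 6497 CPM against 5129.5 with naive genes, 0.34 (0.27 to 0.41), and 5069.9 against 5523 with Il10, -0.12 (-0.20 to -0.05). Rpl10-ps3 gave 453 against 642 with Il10, -0.50 (-0.74 to -0.27), and 689.8 against 568 with naive genes, 0.28 (0.05 to 0.50). By contrast Rpl22 and Rpl22l1 were 67.5% identical and Rpl36a and Rpl36al 87.9%. Rpl9, Rpl23a and Rpl35 had 101, 138 and 66 counts and were not compared, nor were Rps19bp1 and 8 further genes with pseudogene names and 1 to 191 counts.

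The promoters were read next, since the TOP motif sits at the transcription start. RefSeq promoters (GRCm38.p6, 250 bases before to 50 after the annotated start) were at hand for 66 of the 100 genes and for 52 of the 71 measured subunit genes. A C within 5 bases of the start followed by at least 4 pyrimidines, on the sense strand, was found in 25 of the 52 (48.1%) and in 21.2% of all 27025 symbols with a promoter, a gene being counted where any of its promoters held it. The letters CCGGAA, the core of ETS factor sites, were on either strand in 29 (55.8%) against 16.7% of all symbols. AAGATGG, the core of the YY1 site, was on either strand in 8 (15.4%) against 7.28%, and TATAAA within the 50 bases before the start, on the sense strand, in 0 against 3.15%. CCGGAA and AAGATGG can share the letters AA, and each was counted on its own. The bases from 10 before to 20 after the start are given for genes that were high or near level in the naive gate, with the C and its pyrimidine run in capitals:
Rpl28: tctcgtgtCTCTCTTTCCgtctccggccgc
Rpl12: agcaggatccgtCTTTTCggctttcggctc
Rpl31: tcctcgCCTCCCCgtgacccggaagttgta
Rpl22l1: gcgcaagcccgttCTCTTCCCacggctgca
Rpl13a: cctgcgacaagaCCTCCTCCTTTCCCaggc
Rps3a1: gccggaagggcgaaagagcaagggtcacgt
Rpl24: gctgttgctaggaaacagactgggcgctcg
Rpl41: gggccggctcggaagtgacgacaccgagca

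Rpl28 (chr7:4792955-4792984), Rpl12 (chr2:32961702-32961731), Rpl31 (chr1:39367841-39367870), Rpl22l1 (chr3:28805498-28805527) and Rpl24 (chr16:55966265-55966294) are on the plus strand. Rpl13a (chr7:45128726-45128755), Rps3a1 (chr3:86142649-86142678) and Rpl41 (chr10:128549149-128549178) are on the minus strand. Their RefSeq starts lay 0 (Rpl24) to 153 (Rpl12) bases from the outermost GENCODE start, so the window depends on the annotation. Rpl24 and Rpl41, near level in the naive gate, lack the motif in this window, but so does Rps3a1, which was high at 0.56. The 52 genes were also split by the motif as found at the annotated starts. In the naive gate the median was 0.29 for the 25 genes with it and 0.25 for the 27 without, and in the Il10 gate -0.23 and -0.22. In Foxp3 cells the medians were -0.24 and -0.19 and in Gata3 cells -0.08 and -0.10. A gene whose annotated start is off may stand in the wrong group, so this split cannot decide whether the motif goes with the ratios.

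Genes that work with the ribosomal proteins were read from lists. Rack1, a scaffold on the small subunit, falls outside the name rule. It gave 1885 CPM against 2412 with Il10, -0.36 (-0.47 to -0.24). In the naive gate Rack1 gave 2657 against 2178, 0.29. Of 17 non-ribosomal genes known for TOP mRNAs, such as elongation factors, 16 had at least 200 counts. In the naive gate 1 of the 16 was called higher and 0 lower, with a median of 0.14, and in the Il10 gate 1 was higher and 1 lower, with a median of -0.09. Eef1b2, an exchange factor of elongation, gave 2114 CPM against 1659 with naive genes, 0.35, and 1489 against 1843 with Il10, -0.31 (-0.44 to -0.18), and Hnrnpa1 312 against 235 with Il10, 0.41 (0.09 to 0.72). The list thus held values on both sides of 0.

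Ribosome biogenesis genes were hardly countable, with 3 of 29 at 200 counts or more; 1 of the 3 was called higher and 1 lower with naive genes, where 11.9% and 23.4% of all genes were. Rrs1, an assembly factor of the large subunit, had 58 counts and gave 83.4 CPM against 25.9 in the naive gate, 1.69 (0.88 to 2.48). Among genes of the list with at least 50 counts it was the highest. Nop58 and Wdr43 were the lowest, both at -0.64 with intervals that hold 0. Summed, the genes of the list were level in the naive gate, with 1928 CPM against 1897, 0.02 (-0.11 to 0.15). Of 23 genes of the TOR pathway 4 were measured, and all 4 were above 0 with Il10, where 52.9% of all genes were, and 2 of them were called higher, where 19.8% were; the median was 0.42. In the naive gate all 4 were below 0, where 55.3% of all genes were, and 2 of them were called lower, where 23.4% were; the median was -0.36. Ddit4, an inhibitor of TOR complex 1, had 316 counts and gave 122 CPM against 225 with naive genes, -0.88, and 303 against 155 with Foxp3, 0.97. Eif4ebp2, a translation repressor that TOR phosphorylates, had 96 counts, under the minimum for calls. It gave 91.6 against 51.5 with Il10, 0.83 (0.20 to 1.45). Other genes of the list went the other way. With Il10 these were Rragc at -0.54 (-1.46 to 0.29) and Rps6ka3 at -0.35 (-0.97 to 0.24), and with Foxp3 Lamtor2 at -0.45 (-0.81 to -0.09). In the naive gate Rps6kb1 gave 0.50 (-0.45 to 1.38) and Rragc 0.38 (-0.45 to 1.15). Activity of the pathway was not tested. Of 78 mitochondrial ribosomal protein genes 3 reached 200 counts. The summed counts of all 78 gave 3754 CPM against 4016 in the naive gate, a log2 ratio of -0.10 (-0.19 to -0.005). The cytosolic genes gave 206164.5 against 166791.7 there, and as parts of 1 total the 2 sums are not independent.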

How the data were processed

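Counts per barcode and gene symbol were deposited by the authors in 1 table; TopHat2, SAMtools and the mm10 build are named without roles per the submitters' processing notes. How reads were counted, how molecular identifiers and reads that fit several genes were treated, and which annotation was used is not given in the sources used here; this bears on genes with near-identical copies. The barcodes carry no sample, so the 4 labelled samples were 1 sample and no p-value was computed. Cells needed at least 500 counts, 200 genes and under 20% mitochondrial counts. Summed counts gave CPM with exact Poisson intervals, shares with exact binomial (Clopper-Pearson) intervals and log2 ratios with exact conditional binomial intervals, all at 95% (scipy 1.17.1, numpy 2.4.6, pandas 2.3.3). Intervals cover counting error only, and counts may not be independent molecules. CPM are parts of a total, so a higher ribosomal share lowers the CPM of other genes. A gate is at least 1 count of the gene, and a cell with 0 may still express it. Called means a log2 ratio of 0.32 or more in size among genes with at least 200 counts, gate genes left out. Ratios were checked on simulated counts with 200 genes changed. Doublets were kept, and Scrublet (scanpy 1.11.5, scikit-image 0.26.0) was an alternative.

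Genes were named by rule: in each gate the 6 highest and 6 lowest by CPM and by share of the ribosomal total, every subunit paralog, a set of subunit genes of known roles, the 5 genes of most counts, and of each other list the 2 highest and 2 lowest with at least 50 counts. The members and lists were chosen with earlier results of these data known. The comparison of the 80 cells, the restriction to cells with 0 naive counts or under 2500 counts, the combined gates without cells of other types, and the choice of sequences shown came after values were seen. Gene positions and coding sequences are from GENCODE vM21 (GRCm38), promoters from RefSeq, aligned with Biopython 1.88; all 100 symbols matched the annotation. Values of a few single genes are not reported here.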

Additional observations from a re-analysis of the deposited data

Results flagged for a closer look

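Barcodes that failed the cell filters also held ribosomal protein counts. In the 933 such barcodes with counts, the share was 7.87% (7.73 to 8.01) of 141827 counts, at a mitochondrial share of 52.1%; it drew notice as a signal in barcodes that no comparison used. In the 398 of them with at least 100 and under 500 counts the ribosomal share was 9.67% (9.47 to 9.87), and in the 21 with at least 500 counts it was 1.87% (1.71 to 2.05) at 79.2% mitochondrial counts.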

How the results depend on the processing

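Results are the log2 ratios of the ribosomal share, -0.19 (Foxp3), -0.10 (Gata3), -0.22 (Il10) and 0.31 (naive genes), and the numbers of genes called at a log2 ratio of 0.32. All ratios kept their sign under every alternative run except Gata3 among cells with 0 naive counts, 0.021. The ranges were -0.28 to -0.11 for Foxp3, -0.16 to 0.02 for Gata3, -0.28 to -0.12 for Il10 and 0.06 to 0.47 for naive genes. Cells of at least 2500 counts were not run as an alternative. In that bin the directions of Foxp3, Gata3 and Il10 turned, as given above, but not once cells of other types were left out. The cause of the shifts was not tested.

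The numbers of calls below show only how the count of ribosomal protein genes moved with the setting. The share of all genes called under the same setting is given above for some settings only. Elsewhere it was not computed, and the numbers cannot be set against all genes. With every cell thinned to 500 counts the ratios were -0.24, -0.14, -0.25 and 0.34, with 24 genes lower for Foxp3, 8 lower for Gata3, and 41 higher and 1 lower for naive genes. With gates set on thinned counts Gata3 gave -0.054 and naive genes 0.40, with 47 genes higher and 1 lower, and Il10 had 17 lower and 0 higher. With at least 2 counts of the gate genes Foxp3 gave -0.21 with 18 genes lower, and naive genes 0.47 with 57 higher and 1 lower. Without mitochondrial counts the ratios were -0.21, -0.11 and -0.23 for Foxp3, Gata3 and Il10. Without the 16 cells of other types they were -0.24, -0.16, -0.26 and 0.28, with 21 genes lower for Foxp3 and 3 for Gata3. With counts capped at 1 per cell and gene they were -0.15, -0.12, -0.12 and 0.063. The calls fell to 2, 0 and 1 lower for Foxp3, Gata3 and Il10 and 1 higher for naive genes. Rps27rt, found in 98.2% of cells, turned to -0.023 in the naive gate. The cap leaves little room for differences in genes found in most cells. In cells with 0 naive counts Foxp3 gave -0.11 with 4 genes lower, Gata3 had 1 higher, and Il10 gave -0.14 with 7 lower; without the 16 cells as well the ratios were -0.16, -0.051 and -0.18 for Foxp3, Gata3 and Il10, with 1 gene higher for Gata3 and 14 lower for Il10. In cells under 2500 counts the ratios were -0.28, -0.16, -0.28 and 0.35, with 36 genes lower for Foxp3, 1 higher and 3 lower for Gata3, and 1 lower for naive genes. With subunit genes only, Il10 had 0 higher. At a minimum of 50 counts, 2 genes were higher for Foxp3, 1 higher and 3 lower for Gata3, 2 higher for Il10 and 1 lower for naive genes. At 1.5-fold 0 genes were lower for Foxp3, Gata3 and Il10, 0 higher for Il10 and 2 higher for naive genes.

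Of 1154 values of named genes under alternatives, 975 lay inside the interval first given, 178 outside it, and 1 reversed. The reversal was of a called ratio, and 28 of the 110 pairs of gene and gate were called. Changes of sign in the pairs that were not called are not given here. Scrublet called 9 of 1050 cells (0.857%). No paired analysis was possible because the barcodes carry no sample; for the same reason no replicate was left out. Depth limits single genes of few counts, such as Rps27l with 414.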

Other observations

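Given each cell's ribosomal total, single genes varied more between cells than counting allows, by a variance ratio of 1.09 for Rpl27 to 2.93 for Rps3a1 over the 78 measured genes, with a median of 1.64. Among them Rpl23 stood at 2.79, Rps19 at 2.54, Rps27l at 2.31 and Rpl41 at 1.35. This description was chosen after values were seen.

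Other gene groups were read in the 80 cells with a naive gene and 0 Foxp3, Gata3 and Il10, against the 852 cells with 0 naive counts. Of 16 stress genes, 10 were measured; 8 of the 10 were called lower (log2 ratio of -0.32 or below) and 1 higher, at summed levels of 7532 and 11119.7 CPM. All 4 measured TOR pathway genes were called lower, with a median log2 ratio of -0.94. Of 16 measured non-ribosomal TOP genes, 6 were higher and 0 lower, with a median of 0.26. All genes together had 39.7% lower and 19% higher.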
